A study of Mus musculus with 8 samples.

Results

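Expression of 9 genes of intestinal bile acid handling and of small intestine segment identity was measured in medullary thymic epithelial cells and small intestine epithelial cells of mice with and without Cdx1. They were chosen by name, with earlier results of these data known. Every probe that carried any of the 9 names was taken, 10 of the 55669 probes used, for 9 of 34963 gene names. Only Slc51a had a second probe. Slc10a2 takes bile acids up from the gut lumen, Slc51a and Slc51b encode the subunits of the exporter at the opposite side of the cell, and Fgf15 is the hormone that reports bile acid uptake to the liver. Nr1h4 (FXR) and Gpbar1 (TGR5) are bile acid receptors, Nr0b2 (SHP) is a repressor that FXR induces, and Gata4 and Onecut2 are transcription factors of intestinal segments.

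Medullary thymic epithelial cells (mTEC) transcribe genes of many peripheral organs at low level and present their products to developing T cells. Cdx1 is a caudal-type homeobox factor expressed in the gut lining, and the study asks how its absence alters this ectopic expression. RNA was hybridised to 1-colour arrays, 1 array per sample, for 3 Cdx1+/+ mTEC, 3 Cdx1-/- mTEC and 2 samples of small intestine epithelial cells (SIEC), 1 labelled Cdx1+/+ and 1 labelled Cdx1-/-. All mice were of mixed C57BL/6 and 129 background. The mTEC were sorted as Fluorogold-, CD45- cells positive for Epcam and UEA1 and high for CD80 and MHCII, each replicate pooled from 4 to 6 thymi. The SIEC were sorted as Epcam+, CD45- and Fluorogold-, each sample pooled from 3 mice. The ages of the mice, the part of Cdx1 that the allele lacks and the stretch of intestine that was sampled are not given in the sources used here.

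Bile acids are made from cholesterol in the liver, released into the gut and recovered mainly in the ileum, the last segment of the small intestine. There they enter the enterocyte through Slc10a2, bind FXR, leave through the Slc51a-Slc51b exporter, and induce Fgf15, which lowers bile acid synthesis in the liver. Gata4 is known to keep the proximal small intestine from taking on ileal expression, Slc10a2 included, and Onecut2 is a cut-homeodomain factor of the intestinal epithelium.

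The probes that read the uptake, export, receptor and repressor genes are shown first, because each level below is the signal of such a stretch. The sequences are those of the deposited files, 5′ to 3′ along the transcript, on the mouse build mm9, and capitals mark a TAG triplet that closes a reading frame free of stops before it; the Slc10a2 probe is shown up to that triplet.
Slc10a2, chr8:5086156-5086204, minus strand: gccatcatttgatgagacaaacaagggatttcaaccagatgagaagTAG
Slc51a, second probe, chr16:32475871-32475930, minus strand: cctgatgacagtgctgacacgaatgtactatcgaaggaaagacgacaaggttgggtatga
Slc51b, chr9:65260705-65260764, minus strand: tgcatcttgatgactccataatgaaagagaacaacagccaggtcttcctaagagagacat
Nr0b2, chr4:133109694-133109753, plus strand: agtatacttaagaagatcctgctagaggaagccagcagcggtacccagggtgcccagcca
Gpbar1, chr1:74326104-74326163, plus strand: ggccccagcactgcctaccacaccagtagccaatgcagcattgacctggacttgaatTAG
The brighter Slc51a probe lies 235 bases further along the transcript (chr16:32475636-32475695). The other probes lie at chr7:152086371-152086430 (Fgf15), chr10:88917222-88917281 (Nr1h4) and chr14:63817858-63817917 (Gata4), and that of Onecut2 is given with its values.

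Fgf15, Gata4 and Onecut2 had no entry for the bases around their RefSeq starts (GRCm38.p6) and were not searched. The other 6 of the 9 genes had entries of 300 bases, 250 before the start and 50 after it. They were searched on both strands for the letters TTTATG and GCAATAAA, both of the CDX type, AGATAA of the GATA type, CAAAGTCC of HNF4, TCAAGGTCA of NR5A2 and GGTCANTGACC, the inverted repeat read by FXR. Slc10a2 held both CDX-type words, and Nr1h4 held TTTATG and AGATAA. The stretches before the starts of these 2 genes are shown because they carry the CDX-type matches, with matches on either strand in capitals.
Slc10a2, chr8:5105322-5105429, minus strand, bases 142 to 35 before the start: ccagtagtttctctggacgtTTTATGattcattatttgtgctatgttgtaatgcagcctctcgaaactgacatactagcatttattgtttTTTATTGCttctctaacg
Nr1h4, chr10:89506718-89506809, minus strand, bases 151 to 60 before the start: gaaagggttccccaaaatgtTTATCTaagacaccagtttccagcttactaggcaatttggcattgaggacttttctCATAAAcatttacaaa
TTTATG occurs in 11.9% of the 32851 promoter entries, GCAATAAA in 0.974% and AGATAA in 11.2%. Slc51a held CAAAGTCC, read on the opposite strand 78 bases before its start, as 1.42% of entries do. None of the 6 held TCAAGGTCA (0.423% of entries) or GGTCANTGACC (0.0396%), and Slc51b, Nr0b2 and Gpbar1 held none of the words. The GCAATAAA match of Slc10a2 starts 52 bases before the start of the gene and is read on the opposite strand. These are matches of letters, and binding was not measured.

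Levels are given as log2 of the processed signal with the array's 75th percentile subtracted, so that 0 is that percentile; a level describes 1 probe and is not set against that of another probe. Between 58.6% and 63.5% of spots were well above background on the mTEC arrays, and 44.6% and 46.3% on the SIEC arrays, with no saturated spot. Both SIEC arrays shared slide 2 with Cdx1-/- mTEC replicate 1, and the 5 other mTEC arrays were on slide 1. The Cdx1 probe was lower in Cdx1-/- mTEC (5.04, 5.20 and 5.21) than in Cdx1+/+ mTEC (6.09, 6.12 and 6.18). In SIEC it went against the labels, reading 5.13 under the label Cdx1+/+ and 6.73 under the label Cdx1-/-, so SIEC genotypes are given by label throughout. Of 13 mTEC markers, Aire, Fezf2 and Krt5 among them, 12 could be tested and 10 of these were higher in mTEC. The other 2, Epcam and Cldn3, were lower in mTEC (log2 differences −2.52 and −3.02). All 9 enterocyte markers, such as Vil1, Fabp2 and Sis, were higher in SIEC.

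**Figure D1:**
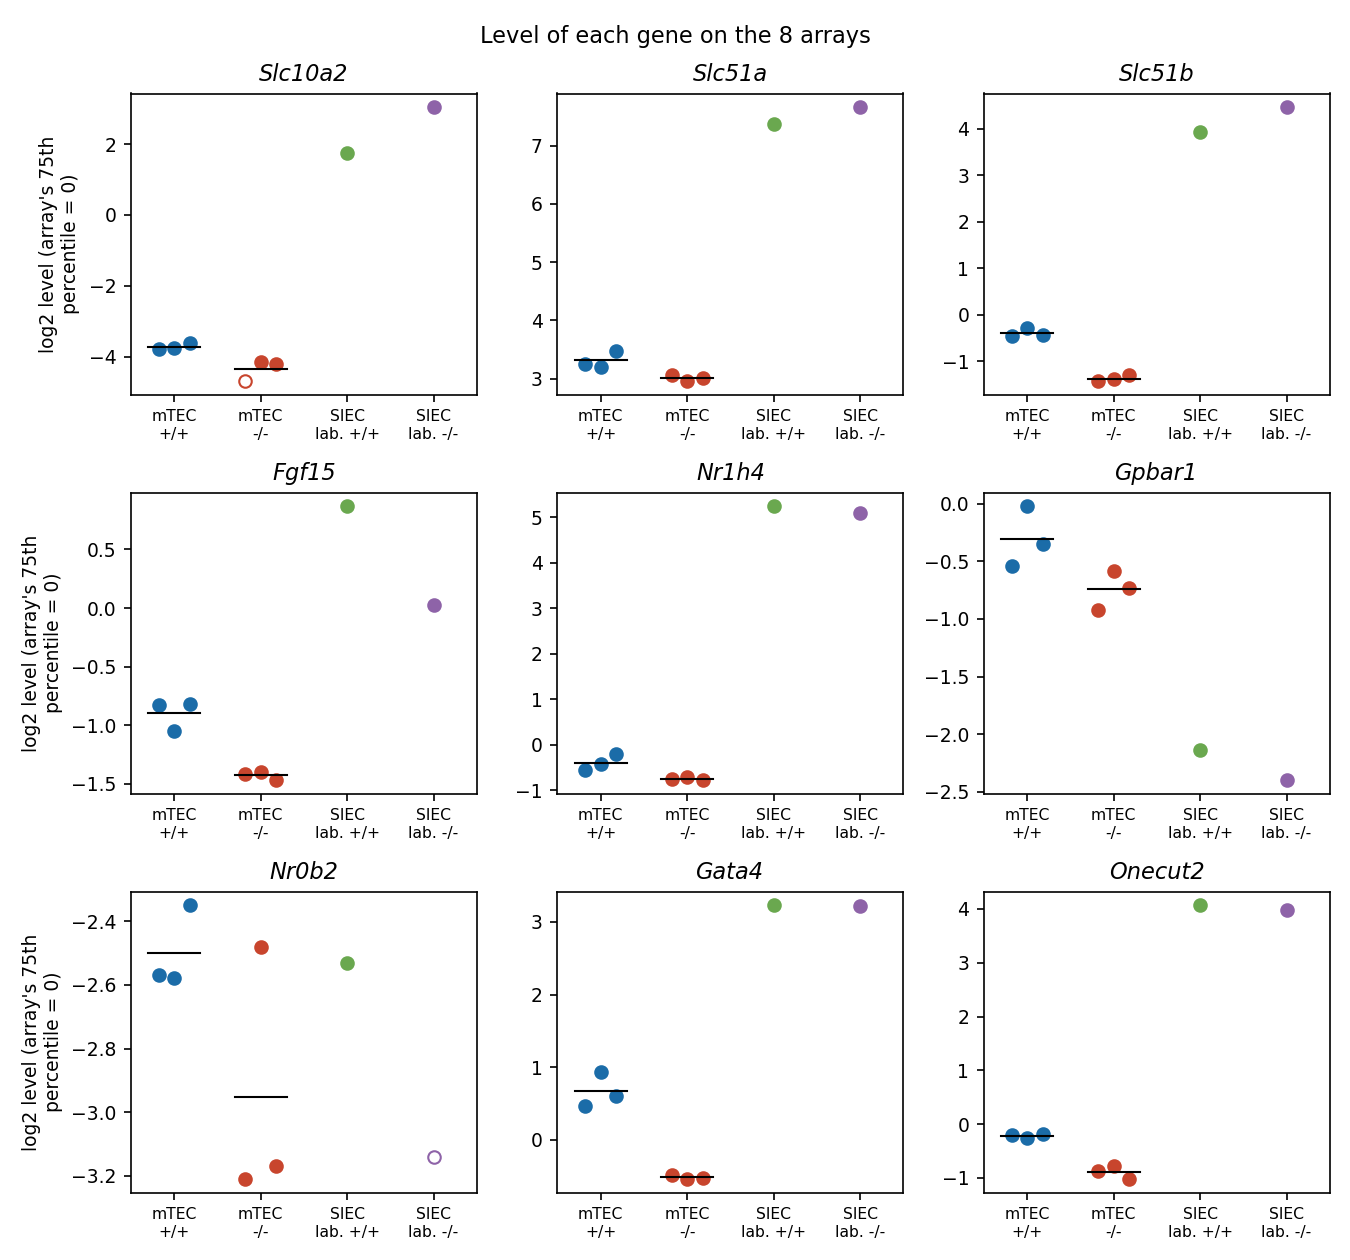
Level of each of the 9 genes on the 8 arrays (vertical axes: log2 signal, with the array's 75th percentile at 0; each panel has its own range). Each point is 1 array, horizontal lines are means of the 3 mTEC arrays of a genotype, and open points were not well above background; 7 genes lie higher on both SIEC arrays than on every mTEC array, and Gpbar1 lies lower.

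In Cdx1-/- mTEC, 5 of the 9 genes fell: Gata4 (2.29-fold), Slc51b (1.97-fold), Onecut2 (1.59-fold), Slc10a2 (1.56-fold) and Fgf15 (1.44-fold). The other 4, Gpbar1, Nr0b2, Nr1h4 and Slc51a, did not pass the test, with log2 differences between −0.45 and −0.30. Of all 24337 genes tested, 6.62% passed as lower in Cdx1-/- cells, 6.4% as higher and 13% in either direction, at a limma adjusted p under 0.05. All 9 differences were negative, as were 49.1% of those of all genes. The median was −0.53 over the 9 and 0.0071 over all genes. In 8 of the 9, every Cdx1-/- array lay below every Cdx1+/+ array, which held for 17.7% of all genes. Because the 9 were chosen with earlier results of these data known, these shares do not test whether the set stands out. The RNA came from mixed cells of a gate, so fewer cells expressing a gene and less of its RNA per cell cannot be told apart.

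**Figure D2:**
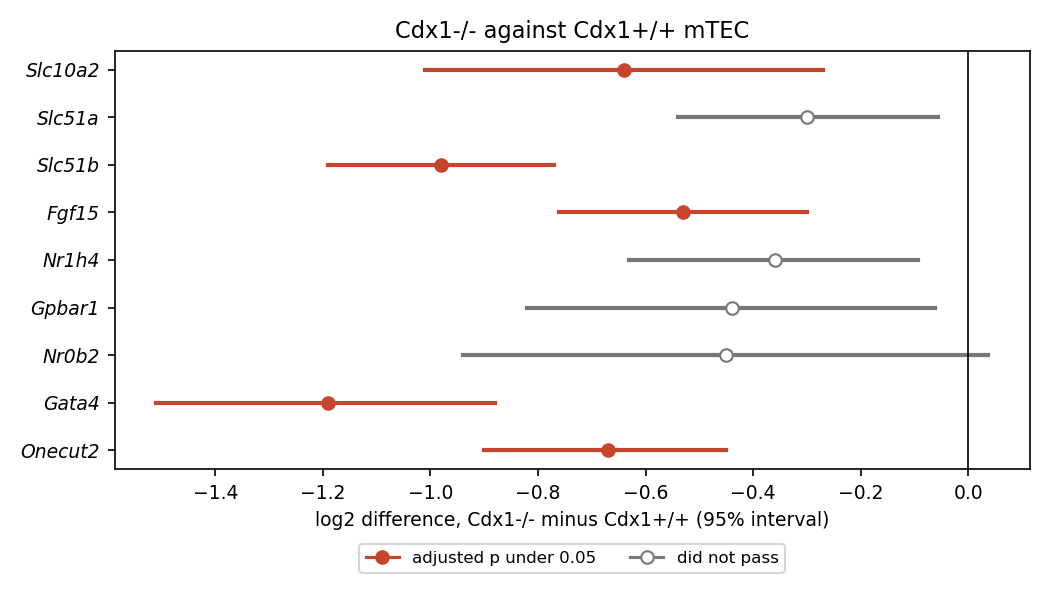
Difference between Cdx1-/- and Cdx1+/+ mTEC for each gene (horizontal axis: log2 difference, points with 95% intervals, 3 arrays per genotype). Gata4 and Slc51b lie farthest below 0, at −1.19 and −0.98, and the interval of Nr0b2 alone reaches above 0.

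Slc10a2, the apical uptake transporter, was dim in mTEC. It read −3.79, −3.76 and −3.61 in Cdx1+/+ mTEC and −4.69, −4.16 and −4.22 in Cdx1-/- mTEC, where replicate 1 was not well above background. All Cdx1-/- values lay below the Cdx1+/+ values, and the spread was wider among the Cdx1-/- arrays. The log2 difference was −0.64 (SE 0.15, adjusted p = 0.0411). Within slide 1, which leaves out the dim replicate, it was −0.48 (adjusted p = 0.0493), and with normexp background correction it was −0.40 and did not pass (adjusted p = 0.156). Leaving out any 1 of the 5 other arrays, or testing without a filter on dim probes (adjusted p = 0.0977), ended the call as well.

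Of the subunits of the basolateral exporter, Slc51b passed the test and Slc51a did not. Slc51b read −0.46, −0.29 and −0.44 in Cdx1+/+ and −1.43, −1.39 and −1.31 in Cdx1-/- mTEC. The genotypes were far apart relative to their spread, by −0.98 (SE 0.09, adjusted p = 0.00338). Its partner Slc51a read 3.26, 3.20 and 3.48 against 3.07, 2.96 and 3.01 at its brighter probe. These values were apart by a narrow margin, with a log2 difference of −0.30 (95% interval −0.54 to −0.057, adjusted p = 0.101). The second Slc51a probe read 1.68, 1.66 and 1.95 against 1.40, 1.31 and 1.40, a difference of −0.39, and it too missed the threshold (adjusted p = 0.0682 in a fit over all probes). The difference between the 2 genes' changes was not tested.

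Fgf15, the hormone gene that FXR induces in ileum, fell too, with a log2 difference of −0.53 (SE 0.095, adjusted p = 0.0182). Its levels were −0.83, −1.05 and −0.82 in Cdx1+/+ and −1.42, −1.40 and −1.47 in Cdx1-/- mTEC, with a gap between the genotypes wider than the range within either. The call ended when Cdx1+/+ replicate 1 or 3 or Cdx1-/- replicate 2 or 3 was left out (adjusted p up to 0.0702, values of −0.54 to −0.49), and without a filter on dim probes (adjusted p = 0.0524).

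The receptors did not pass. Nr1h4 (FXR), the nuclear receptor, read −0.56, −0.43 and −0.20 in Cdx1+/+ and −0.76, −0.72 and −0.78 in Cdx1-/- mTEC. The Cdx1-/- arrays lay close together below the others, at a difference of −0.36 (95% interval −0.63 to −0.093, adjusted p = 0.0812). Gpbar1 (TGR5), the membrane receptor, read −0.54, −0.02 and −0.35 against −0.92, −0.58 and −0.73. The nearest arrays of the 2 genotypes differed by less than the spread within either. Its difference was −0.44 (adjusted p = 0.115), and with the replicate number as a block the same difference passed (adjusted p = 0.0389).

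Nr0b2 (SHP), the repressor that FXR induces, had overlapping genotypes. It read −2.57, −2.58 and −2.35 in Cdx1+/+ and −3.21, −2.48 and −3.17 in Cdx1-/- mTEC, where replicate 2 lay among the Cdx1+/+ arrays. The difference of −0.45 (95% interval −0.94 to 0.037) did not pass (adjusted p = 0.188). Without Cdx1-/- replicate 2 it was −0.69 and passed (adjusted p = 0.0324).

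Both segment factors fell under every alternative run. Gata4 read 0.47, 0.94 and 0.61 in Cdx1+/+ and −0.49, −0.54 and −0.52 in Cdx1-/- mTEC, a difference of −1.19 (SE 0.13, adjusted p = 0.00522). The Cdx1-/- arrays were nearly equal, and the lowest Cdx1+/+ array stood well above them. Onecut2 read −0.20, −0.26 and −0.18 against −0.87, −0.77 and −1.02, a difference of −0.67 (SE 0.095, adjusted p = 0.010). Its arrays were tight within each genotype. Onecut2 (probe at chr18:64546262-64546321, plus strand, mm9) lies on the same chromosome as Cdx1, with 3.37 Mb between the probes, in mice of mixed background. Of 141 other genes tested within 10 Mb of the Cdx1 probe, 20 were lower in Cdx1-/- mTEC (14.2%, against 6.62% of all genes) and 15 higher, with a median of −0.0064. In either direction 24.8% of them passed, against 13% of all genes. The part of the chromosome region in the Onecut2 value was not tested.

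Cell type markers moved with these results in part, where 6.62% of all genes tested passed as lower and 6.4% as higher. Of 9 enterocyte markers 6 fell (Cdh17 passed too with the replicate block, adjusted p = 0.0392), with a median of −0.82, and their summed level was 6.42 to 6.50 on Cdx1+/+ and 5.80 to 5.83 on Cdx1-/- arrays. Of 4 secretory cell markers of intestine 2 fell, Tff3 and Chga (adjusted p = 0.0509 for Chga with the replicate block), with summed levels of 6.31 to 6.38 and 6.13 to 6.29. Of 4 tuft cell markers 2 rose, Trpm5 and Avil, from a summed level of 1.54 to 1.90 to one of 2.32 to 2.61. None of the 12 mTEC markers fell and 1, Cd86, rose (0.36, adjusted p = 0.0318, and 0.0549 within slide 1), with summed levels of 9.59 to 10.13 and 9.45 to 9.89. The MHCII genes H2-Ab1 (means 8.81 and 8.60) and H2-Aa (7.73 and 7.80) weigh most in that sum, and the cells were sorted as high for MHCII. No haematopoietic (8), endothelial (3), hepatocyte (3 tested of 4), pancreas acinar (4) or muscle (4) marker passed, and 1 of 5 mesenchymal markers, Pdgfrb, fell by 0.78 (summed levels of 4.52 to 4.76 and 4.50 to 4.75). With the replicate block 3 of these passed as lower: Itgam of myeloid cells (−0.88, adjusted p = 0.0288), Ttr of hepatocytes (−0.98, 0.0431) and Acta2 of muscle (−0.37, 0.0459). Summed haematopoietic levels were 4.00 to 4.56 on Cdx1+/+ and 3.46 to 3.99 on Cdx1-/- arrays. The part of these cell types in the 9 genes' values was not tested.

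Of 27 other genes of bile acid metabolism 24 were tested, of which 3 fell, none rose and 21 missed the threshold, at a median of −0.12. That is 12.5% called, all as lower, next to 13% of all genes in either direction and 6.62% as lower. The 3 were Hnf4a, a nuclear receptor of gut and liver epithelium (−1.19, adjusted p = 0.00243), Fgfr4, the receptor for Fgf15 (−0.52, adjusted p = 0.0146), and Nr5a2 (LRH-1), a partner of FXR signalling (−0.80, adjusted p = 0.0227, and 0.0621 within slide 1). Fabp6, the ileal bile acid-binding protein, named here after its values were seen, went from 5.80 to 5.49 and did not pass (adjusted p = 0.107). With the replicate block the exporter gene Abcc2 also passed (−0.42, adjusted p = 0.0381, and 0.0722 without it). The hepatic enzyme genes Cyp7a1, Cyp8b1 and Akr1d1 were too dim to be tested in mTEC.

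Several genes of the proximal small intestine fell. In this list 11 of 22 genes fell, none rose and 11 missed the threshold, at a median of −0.61. That is 50% called, and of all genes 6.62% passed as lower, 6.4% as higher and 13% in either direction. Fabp1, the liver-type fatty acid-binding protein, fell by 1.44 (adjusted p = 0.00197), the hormone gene Sct by 0.99 (adjusted p = 0.00322), and the apolipoprotein genes Apoc3 and Apoa4 fell as well (−1.29 and −0.79, adjusted p = 0.00493 and 0.00715). Of the 11, Pdx1 lost its call with the replicate block (adjusted p = 0.0603) and Gip within slide 1 (0.0596). Pdx1 was also well above background on only 3 mTEC arrays, so the size of its difference is uncertain. Its means were −4.03 in Cdx1+/+ and −5.58 in Cdx1-/- mTEC. Among 14 distal genes 4 fell, 1 rose and 9 missed the threshold (35.7% called), at a median of −0.27. The 4 were the metalloproteinase gene Mep1a (−0.98), the guanylin gene Guca2a (−1.18), the homeobox gene Cdx2 (−0.84) and the hormone gene Pyy (−0.50, adjusted p = 0.0313, and 0.0789 within slide 1). Fabp6 is in both this list and that of bile acid genes, and whether the lists differ from each other was not tested.

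**Figure D3:**
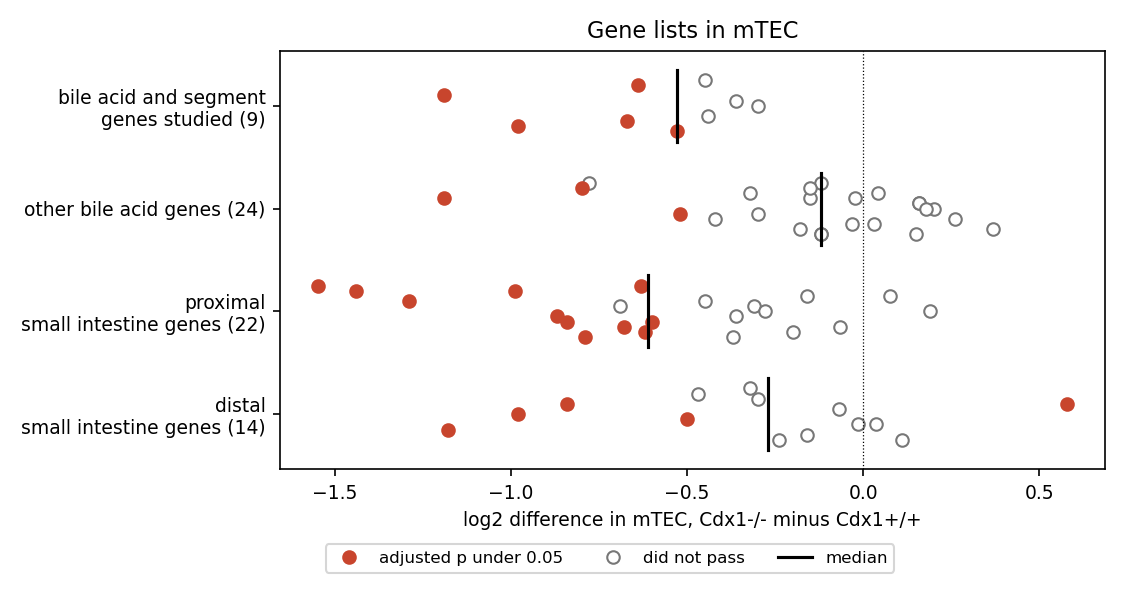
Differences between Cdx1-/- and Cdx1+/+ mTEC for the 9 genes and for 3 lists of other genes (horizontal axis: log2 difference; each point is 1 gene, filled where the adjusted p was under 0.05; vertical bars are medians). Vertical scatter within a list has no meaning; the medians lie at −0.53, −0.12, −0.61 and −0.27 from top to bottom.

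Between tissues, 7 of the 9 genes were lower in mTEC than in SIEC, Gpbar1 was higher and Nr0b2 did not pass. The same 6 mTEC arrays enter this comparison and the one between genotypes. The fit holds genotype as an additive term, which uses the SIEC labels that the Cdx1 probe ran against. Without that term, 7 of the 9 again passed as lower. The limma adjusted p then went from 6.64e-06 to 0.000453 for Fgf15, and from 2e-06 to 4.31e-07 for Slc10a2. Of all 25272 genes tested, 84.1% passed, 50.2% as lower in mTEC and 33.9% as higher, so a call alone says little here and the sizes are given. The median difference was −4.35 over the 9 genes and −0.46 over all genes. With other scalings the median over all genes was −0.56 (normexp), −0.10 (quantile) and −0.90 (the authors' deposited table), and the share of calls that were higher in mTEC was 40.3%, against 29.1%, 47.4% and 33.5%. The 7 lower genes and Gpbar1 kept their direction and passed the test under each of these scalings, whereas Nr0b2 changed sign. All 8 of these genes had the arrays of the tissues apart, as did 82.4% of all genes.

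Slc10a2 read 1.74 on the SIEC array labelled Cdx1+/+ and 3.04 on the one labelled Cdx1-/-, against −4.69 to −3.61 in mTEC. That was 86.1-fold lower in mTEC (log2 difference −6.43, SE 0.39, adjusted p = 2e-06), or −5.96 relative to the median of all genes. Only 5 of the 6 mTEC arrays were well above background, and the SIEC arrays differed from each other more than for the other 8 genes. The size was −5.46 without the SIEC array labelled Cdx1-/-, −7.40 without the one labelled Cdx1+/+ and −4.70 with normexp. The order was SIEC labelled Cdx1-/-, SIEC labelled Cdx1+/+, Cdx1+/+ mTEC, Cdx1-/- mTEC.

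Slc51a read 7.38 and 7.66 on the SIEC arrays labelled Cdx1+/+ and Cdx1-/-, against 2.96 to 3.48 in mTEC, 20.4-fold lower in mTEC (−4.35, adjusted p = 1.08e-07). The second probe gave nearly the same difference, −4.29. Slc51b read 3.92 and 4.46 against −1.43 to −0.29, 33.8-fold lower in mTEC (−5.08, adjusted p = 1.61e-06). Both exporter genes were well above background on all 8 arrays, and no mTEC array came near a SIEC array.

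Fgf15 had the smallest gap among the 7, at 0.87 and 0.03 in SIEC against −1.47 to −0.82 in mTEC, 3.06-fold (−1.61, SE 0.12, adjusted p = 6.64e-06). Nr1h4 read 5.24 and 5.08 in SIEC against −0.78 to −0.20 in mTEC, 53.3-fold lower in mTEC (−5.74, SE 0.12, adjusted p = 1.17e-08). The SIEC arrays agreed closely for this receptor. Gata4 read 3.23 and 3.22 in SIEC against −0.54 to 0.94 in mTEC, 8.85-fold lower in mTEC (−3.15, SE 0.26, adjusted p = 1.1e-05). Onecut2 read 4.07 and 3.98 against −1.02 to −0.18, 23.8-fold lower (−4.57, SE 0.15, adjusted p = 7.68e-08). For all 4 genes the lowest SIEC array lay above the highest mTEC array. Over the alternatives run, Nr1h4 ranged from −6.18 to −5.08, Gata4 from −3.74 to −2.56, Slc51a from −4.79 to −3.27 and Slc51b from −5.88 to −4.32.

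Gpbar1 went the other way. It read −2.14 and −2.40 in SIEC and −0.92 to −0.02 in mTEC, 3.35-fold higher in mTEC (log2 difference 1.74, SE 0.16, adjusted p = 2.54e-05), or 2.21 relative to the median of all genes, and by 0.96 with normexp (adjusted p = 0.00016). Every mTEC array of either genotype lay above both SIEC arrays. Nr0b2 read −2.53 and −3.14 in SIEC, the second not well above background, within the range of −3.21 to −2.35 in mTEC. Its difference was 0.11 (95% interval −0.37 to 0.59, adjusted p = 0.638), and with normexp it was −0.49 (adjusted p = 0.0143). Within slide 2 the comparison rests on Cdx1-/- mTEC replicate 1 against the SIEC array labelled Cdx1-/-, with no test. There Fgf15 differed by −1.45, Slc51b by −5.88 and Gpbar1 by 1.48, and Slc10a2 was not well above background on that mTEC array.

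**Figure D4:**
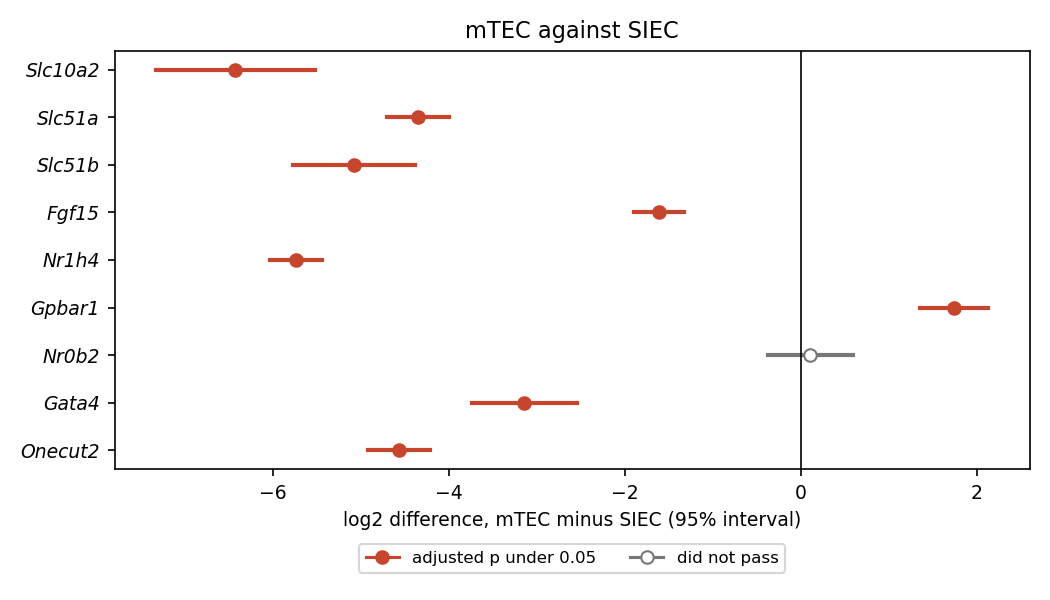
Difference between mTEC (6 arrays) and SIEC (2 arrays) for each gene (horizontal axis: log2 difference with 95% intervals, genotype as an additive term). Slc10a2 lies at −6.43 and Nr1h4 at −5.74, an order that turns with normexp (−4.70 and −5.23), Gpbar1 lies above 0 at 1.74, and the interval of Nr0b2 spans 0.

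Within SIEC, Slc10a2 was the 1 gene of the 9 that differed by at least 2-fold between the arrays. It was 2.46-fold higher on the array labelled Cdx1-/- (log2 difference 1.30), and 5.94% of the 19131 genes measured had a larger difference. Slc51b was 1.44-fold higher there (0.53) and Slc51a 1.21-fold (0.28; 0.029 at its second probe). Fgf15 was 1.80-fold lower (−0.85). Nr0b2 was not well above background on the array labelled Cdx1-/-, so its difference of −0.61 (−0.094 with normexp) is no measured fold. Gata4 (−0.013, and 0.041 with quantile scaling), Onecut2 (−0.090), Nr1h4 (−0.16) and Gpbar1 (−0.27) differed less. Of all genes, 9.23% differed at least 2-fold, 5.68% as higher on the array labelled Cdx1-/- and 3.55% as lower. With 1 array a label there is no test, and the Cdx1 probe ran against these labels.

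**Figure D5:**
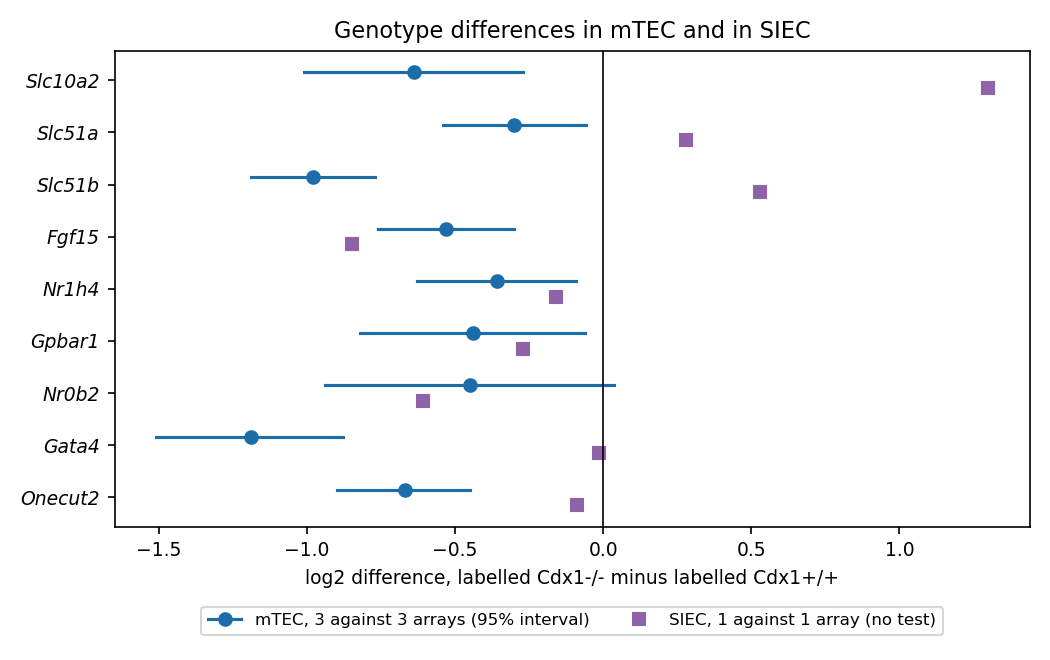
Differences between labelled genotypes in mTEC (circles, 3 arrays against 3, with 95% intervals) and in SIEC (squares, 1 array against 1, no test), as log2 on the horizontal axis. Slc10a2, Slc51a and Slc51b lie above 0 in SIEC (1.30, 0.28 and 0.53) and below 0 in mTEC, and the other 6 genes lie below 0 in both, Gata4 at −0.013 in SIEC. Were the SIEC labels turned, those 3 would lie below 0 in both and the other 6 would be opposite by sign. Nr0b2 is no measured fold in SIEC, and Gata4 turned sign there with quantile scaling (0.041).

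Other genes differed between the SIEC arrays too, where the median difference over all 19131 genes measured was −0.045. All 8 haematopoietic markers were higher on the array labelled Cdx1-/- (median 1.32, summed levels of 5.70 and 6.82), although both samples were sorted as CD45-. All 4 mesenchymal markers measured were higher too (0.62 to 1.26, median 0.91). Of these, Col3a1 (1.12) was well above background on only 1 SIEC array, so its value is no measured fold. Of 2 muscle markers measured, 1 was higher and 1 lower. These were Acta2 (2.34, well above background on only 1 SIEC array, so no measured fold) and Tnnt2 (−0.35). All 4 tuft cell markers were lower (median −1.57), with Pou2f3 (−0.47) well above background on only 1 SIEC array and so no measured fold. All 9 enterocyte markers were higher (0.03 to 1.13, median 0.48). Of 18 proximal genes measured, 13 were higher and 5 lower, with differences from −2.35 to 1.76. Among the 5, Cybrd1 (−0.29) was well above background on only 1 SIEC array. The 13 distal genes had a median of 0.02 and ran from −0.29 to 1.19. The part of cell composition or of the sampled stretch of intestine in the Slc10a2 value was not tested.

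The genes with the most similar pattern were found by the root mean square difference of log2 levels over the 8 arrays, after each gene's own mean was removed, among 11590 named genes well above background on all arrays. Slc51b was most like Alpi, the intestinal alkaline phosphatase (0.102), Myo7b, a brush border myosin (0.124), and Adh6a (0.152); the median over all candidates was 1.90. Alpi was lower in Cdx1-/- mTEC by 0.82 and differed between tissues by −5.07, against −0.98 and −5.08 for Slc51b. Slc51a was most like the sterol transporter gene Abcg5 (0.082), Mcoln2 (0.0889) and Sfxn1 (0.104). Onecut2 was most like Mlxipl, a glucose-responsive transcription factor (0.126), Nr5a2 (0.143) and the exporter gene Abcg2 (0.146).

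For Nr1h4 the nearest patterns were Golm1 (0.124), the lectin gene Itln1 (0.126) and Grtp1 (0.127). Gata4 was most like Pipox, a peroxisomal oxidase gene (0.116), Tstd1 (0.204) and the thioesterase gene Acot4 (0.211). Fgf15 was most like the folate enzyme gene Mthfd1 (0.134), Car15 (0.145) and Ncaph (0.158), with a median over candidates of only 0.582. Gpbar1 was most like Cnp (0.102), Fuz (0.111) and Tiam1 (0.134). Nr0b2 had 405 candidates above background on the same arrays and was most like Fam219aos (0.193), Antxrl (0.202) and Supt20 (0.204). Slc10a2 had 12 candidates, and the nearest, Iqgap2, differed from it by 1.00. These values describe the arrays and share the tissue difference, with no test.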

How the data were processed

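Each deposited scanner file lists spot intensity on a linear scale, read by the authors with Agilent Feature Extraction 10.7.3.1 according to the file headers. The processed signal in them is an intensity with background subtracted, not scaled between arrays, per the file headers. The authors' deposited table holds a signal equal to that intensity times 1 constant per array (each median 1), and why these constants were chosen is not stated. Positions of probes are mm9, as deposited. The 9 genes and the gene lists were chosen with earlier results of these data known.

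Outlier spots were dropped, which left 55669 of 55681 probes. Intensities were put on the log2 scale, spots of a probe averaged and the array's 75th percentile over probes subtracted. Names came through the probe's accession from a RefSeq table for 27506 probes; 3549 kept a name that this table also holds and 24614 the file's own. The brightest detected probe stood for a gene. Genes detected (well above background) on 2 or more arrays of an mTEC genotype were tested (in the tissue comparison also those above it on 1 SIEC array).

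Genotypes were compared over the 6 mTEC arrays, and tissues over all 8 with genotype as an additive term, with limma 3.58.1 (lmFit, eBayes; R 4.3.3), 2-sided, Benjamini-Hochberg over all genes, threshold 0.05. The fits were tested on simulated data with 24337 genes and independent noise, without slide or replicate effects. For the genotype comparison 65 of 100 genes shifted by 1 and 94 of 100 shifted by 2 on the log2 scale were found, with 3 false calls. For the tissue comparison, with the mTEC spread given to all arrays, these counts were 73, 98 and 9. Effects shared between arrays were not simulated, so the false calls may not carry over to the data. Replicate numbers come from the titles, and no pairing of samples is stated. Deviations from group means of samples with the same number correlated at 0.322, 0.147 and 0.148, which does not settle whether the numbers pair the samples. The number was therefore fitted as a block only as an alternative. Alternatives were normexp, quantile scaling, the authors' table, other filters, slide as a block and leaving out each array. Genes named from lists are up to 4 of smallest p per list and direction; exceptions are stated, and 1 gene that the rule takes is not reported here. The number of arrays limits the precision. Tables and plots used the R package data.table (1.17.8), pandas 2.3.3 and matplotlib 3.10.9.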

Additional observations from a re-analysis of the deposited data

Results flagged for a closer look

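In 3 of the 9 genes the arrays of the labelled genotypes moved in opposite directions in the 2 tissues. Slc10a2 was higher by 1.30 (log2) on the SIEC array labelled Cdx1-/- and lower by a log2 difference of −0.64 in Cdx1-/- mTEC. Slc51b was higher by 0.53 in SIEC and stood at −0.98 in mTEC. Slc51a was higher by 0.28 in SIEC and stood at −0.30 in mTEC, where it did not pass, and in the authors' deposited table its SIEC difference was 0.063. The difference between the tissues was not tested, since SIEC has 1 array a label, and the Cdx1 probe ran against the SIEC labels. With the SIEC labels turned, these 3 genes would move the same way in both tissues and the other 6 would be opposite by sign (Fgf15 −0.85 as labelled). Of those 6, Nr0b2 is no measured fold (−0.61, and −0.094 with normexp). Gata4 was at −0.013, and 0.041 with quantile scaling, and Gpbar1 at −0.27, and −0.0056 with normexp, so the signs of these are uncertain.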

How the results depend on the processing

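The count of genes past the test in mTEC was 3170, and 2100 with normexp, 1347 with no filter on dim probes (3 of the 9 genes), and 1776 with slide as a block or within slide 1. Leaving out 1 array gave 1085 (without Cdx1+/+ replicate 3) to 1776 genes and 3 to 5 of the 9. With the replicate number as a block 3591 genes passed, and of the 9 genes the call changed for Gpbar1 alone. Slide as a block, within slide 1 and without Cdx1-/- replicate 1 are 1 fit. Gata4, Slc51b and Onecut2 passed under every alternative run, Fgf15 lost its call under 5 and Slc10a2 under 7, and Slc10a2 was too dim for the strict filter. Between tissues, leaving out 1 array gave 20591 to 21145 genes and 7 of the 9 as lower. Nr0b2 reversed there with normexp (−0.49), quantile scaling (−0.30), the authors' table (−0.33), slide as a block (−0.17) and without Cdx1-/- mTEC replicate 2 (−0.0089, the lowest of −0.0089 to 0.18 when 1 array was left out); the cause was not tested. Between the SIEC arrays, 2 of the 9 genes differed at least 2-fold in the authors' deposited values, Slc10a2 (1.08) and Fgf15 (−1.06). The fit over all probes was added after seeing the data.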
